A study of Mus musculus with 2 samples.

Results

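A set of 10 genes of neutrophils and of the signals that recruit them was followed through every cell cluster of a kidney single-cell RNA sequencing data set. They were S100a8, S100a9, Retnlg, Ngp, Camp, Ltf, Lcn2, Cxcr2, Cxcl2 and Cxcl1, chosen by name, and all 10 were found among the 20299 genes of the count matrices. Unique molecular identifiers (UMIs), each standing for 1 captured RNA molecule, were summed for each gene over the cells of each of the 16 clusters named by the study and over each library.

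Cells came from kidneys of C57BL/6 mice aged 8 weeks with nephrotoxic nephritis (NTN), an antibody-mediated glomerulonephritis. Both groups carried the same injury: mice were immunized through the peritoneum with 200 µg of sheep IgG emulsified in complete Freund's adjuvant, and sheep nephrotoxic serum was injected into a vein 4 days later. The serum dose was 2 µl per g of body weight by the sample labels, and the study's methods give a larger volume. The groups were WT mice and Vsir-/- mice, which lack VISTA, an immune checkpoint protein of myeloid and T cells, and which were bred from cryopreserved sperm of a knockout repository. No uninjured kidney was included, and the number of mice behind a library and the day of harvest are not stated in the labels. By its label the WT library was made from sorted CD45+ cells, and the label of the Vsir-/- library names kidney cells of every kind, whereas the study's methods describe a CD45+ sort without such a distinction. With 1 library per genotype, genotype, sort and library cannot be told apart, and no test between genotypes was possible. Every interval given covers only the counting of UMIs or the draw of cells within a library.

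Neutrophils carry preformed proteins in granules that are filled in a fixed order as the cell matures in the bone marrow. Primary granules with myeloperoxidase and elastase come first, secondary granules with lactoferrin (Ltf), cathelicidin (Camp), neutrophilic granule protein (Ngp) and lipocalin-2 (Lcn2) follow at the myelocyte stage, and the genes are largely silent again in mature cells. S100a8 and S100a9 pair to form calprotectin, the dominant cytosolic protein of neutrophils, and Retnlg encodes a resistin-like secreted protein of mature neutrophils. Cxcl1 and Cxcl2 are chemokines that draw neutrophils from blood into inflamed tissue, and Cxcr2 is their receptor. Lcn2 is also made by injured kidney tubules, which is why it is used as a marker of kidney injury, and Cxcl1 can be made by stromal, endothelial and epithelial cells.

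The upstream sequences of 5 of the genes are shown as examples that hold letters of the C/EBP or the NF-kB site. They were taken from RefSeq on GRCm38.p6 and cover the 250 bases before the annotated start, and the build named in the submitters' processing notes is mm9. In Ngp at chr9:110419558-110419807 (plus strand), Ltf at chr9:111019042-111019291 (plus strand) and Lcn2 at chr2:32387740-32387989 (minus strand), capitals mark the letters TTGCNNAA or their reverse complement TTNNGCAA, a short form of the site of C/EBP factors, which drive granulocyte genes. In Cxcl1 at chr5:90890995-90891244 (plus strand) and Cxcl2 at chr5:90903649-90903898 (plus strand), capitals mark GGNNTTTCC or GGAAANNCC, a short form of the NF-kB site.
Ngp: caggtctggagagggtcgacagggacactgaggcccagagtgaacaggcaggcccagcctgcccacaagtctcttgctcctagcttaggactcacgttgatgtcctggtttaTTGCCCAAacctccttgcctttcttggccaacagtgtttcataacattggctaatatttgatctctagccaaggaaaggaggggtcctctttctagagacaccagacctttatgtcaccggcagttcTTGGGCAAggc
Ltf: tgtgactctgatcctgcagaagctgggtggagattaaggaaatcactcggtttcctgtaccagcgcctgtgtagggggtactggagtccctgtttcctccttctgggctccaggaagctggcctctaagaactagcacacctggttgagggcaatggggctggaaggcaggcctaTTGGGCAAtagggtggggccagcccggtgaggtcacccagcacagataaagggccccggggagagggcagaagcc
Lcn2: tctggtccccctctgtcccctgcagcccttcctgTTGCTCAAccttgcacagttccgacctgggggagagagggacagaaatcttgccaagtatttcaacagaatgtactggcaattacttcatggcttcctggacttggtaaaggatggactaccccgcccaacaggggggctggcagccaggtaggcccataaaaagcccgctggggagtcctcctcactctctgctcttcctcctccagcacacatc
Cxcl1: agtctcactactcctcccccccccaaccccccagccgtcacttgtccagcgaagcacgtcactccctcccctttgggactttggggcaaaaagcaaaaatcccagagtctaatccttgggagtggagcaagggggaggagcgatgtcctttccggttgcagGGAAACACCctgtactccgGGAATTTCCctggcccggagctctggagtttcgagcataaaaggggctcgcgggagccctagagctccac
Cxcl2: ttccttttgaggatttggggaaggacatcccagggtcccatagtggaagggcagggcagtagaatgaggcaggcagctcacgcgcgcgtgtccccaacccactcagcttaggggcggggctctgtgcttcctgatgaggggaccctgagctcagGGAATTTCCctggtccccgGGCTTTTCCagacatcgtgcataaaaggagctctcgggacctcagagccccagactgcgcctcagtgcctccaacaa
The C/EBP letters were found in 5 of the 10 upstream regions, those of S100a9, Retnlg, Ngp, Ltf and Lcn2, and in 9.56% of 32851 mouse promoters of the same length. The NF-kB letters were found in 2 of the 10, Cxcl1 and Cxcl2, and in 4.93% of all promoters. S100a8, Camp and Cxcr2 held neither. For Camp and Retnlg the bases just after the annotated start were not found in a transcript of the gene, so the place of their upstream regions is less sure. Ngp held the C/EBP letters 2 times, and Cxcl1 and Cxcl2 each held the NF-kB letters 2 times. These are matches of letters and say nothing about binding in these kidneys.

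The WT library held 5470 cells and 32799550 UMIs, and the Vsir-/- library held 1844 cells and 18601189 UMIs. The neutrophil cluster held 524 WT cells with a median of 3565 UMIs and 158 Vsir-/- cells with a median of 4097 UMIs. Vsir itself had 698 UMIs in WT neutrophils and 0 in Vsir-/- neutrophils. Summed markers of kidney tubules, a list of 10 genes that includes Lrp2 and Umod, were at 1.21 CPM (counts per 1e+06 UMIs of the same cells) in WT and 2402 CPM in Vsir-/- neutrophils, where every cell had at least 1 such UMI. T cell markers went the other way, from 451 CPM in WT to 55.3 CPM in Vsir-/- neutrophils. The libraries shared 5 cell barcodes. In the WT library 5348 genes were listed at 0 in every cell and all of them stood together at the end of the gene list, after the last gene with a WT UMI.

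In the neutrophil cluster 12 neutrophil genes outside the set were read, among them the G-CSF receptor Csf3r, the surface protein Ly6g and the collagenase Mmp8. Their levels in other clusters are not set beside them here, so these values do not test the label of the cluster. All 12 were present in both libraries, at a sum of 10975 CPM in WT and 10024 CPM in Vsir-/- neutrophils. Of these 12 genes 0 differed by 2-fold between the libraries, and their median log2 ratio of Vsir-/- over WT was -0.02. The primary granule genes were almost empty: Prtn3 had 10 UMIs in WT and 2 in Vsir-/- neutrophils, Mpo had 4 and 0, and Elane and Ctsg had 0 in both.

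**Figure D1:**
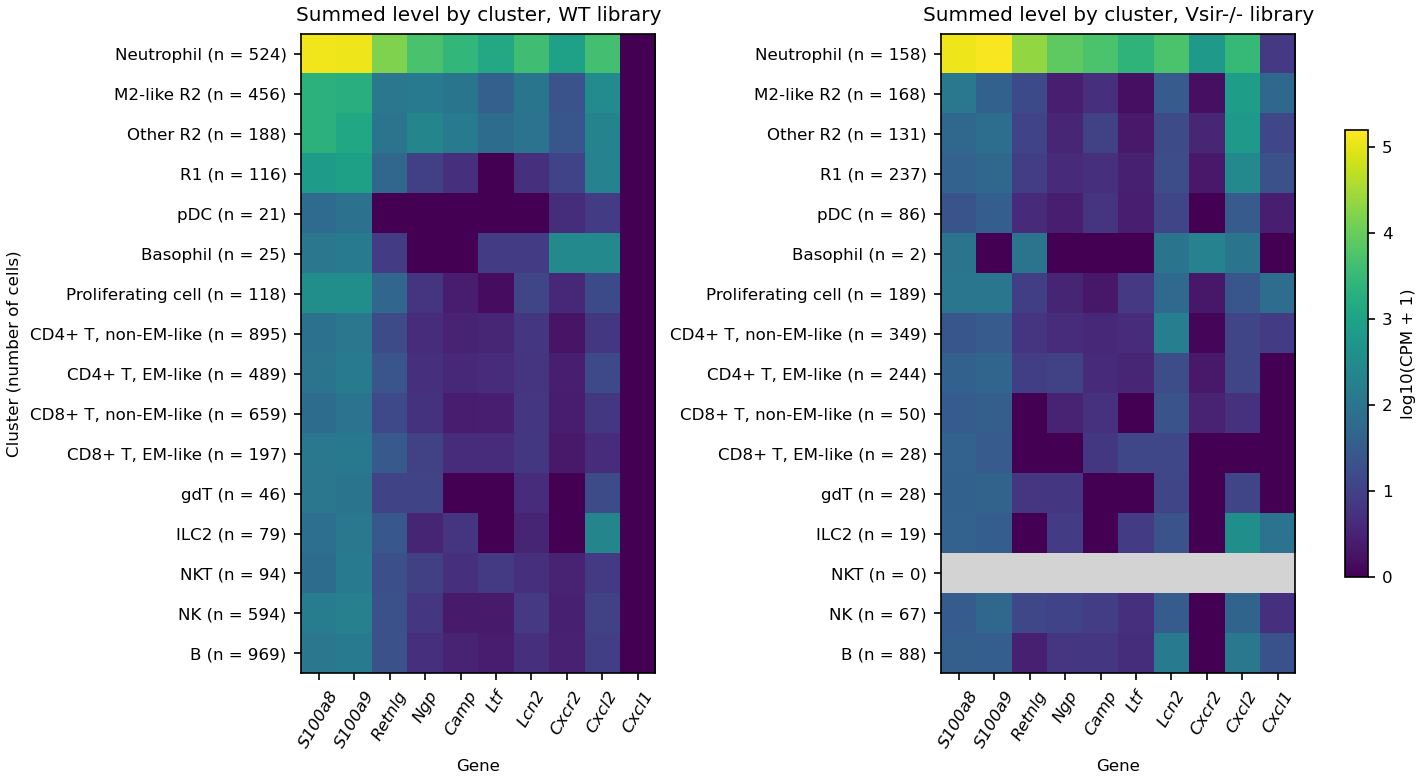
Summed level of the 10 genes (columns) in each cluster (rows, with the number of cells) of the WT library (left) and the Vsir-/- library (right), as log10(CPM + 1), with grey for a cluster without cells. The neutrophil row is the brightest for every gene but Cxcl1, and Cxcl1 is dark throughout the WT library.

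S100a8 and S100a9 were the most abundant transcripts of the neutrophil cluster. In WT neutrophils S100a8 reached 121607 CPM (95% Poisson interval 121174 to 122042) and S100a9 reached 118923 CPM (118494 to 119352). In Vsir-/- neutrophils S100a8 reached 119598 CPM (118830 to 120370) and S100a9 reached 140056 CPM (139225 to 140891). They were ranks 1 and 2 of all genes in both libraries, with S100a8 first in WT and S100a9 first in Vsir-/-.

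The level of S100a8 was nearly equal between the libraries, with a log2 ratio of -0.02 (95% exact conditional interval -0.03 to -0.01), and its sign changed under other scalings. S100a9 was higher in Vsir-/- neutrophils by 0.24 (0.23 to 0.25) on the log2 scale. S100a9 made up 49.4% (exact binomial interval 49.3 to 49.6%) of S100a8 and S100a9 UMIs in WT and 53.9% (53.7 to 54.2%) in Vsir-/- neutrophils. Single cells varied far more than the libraries did. S100a8 ran from 349 to 272219 CPM with a median of 110382 in WT cells, and from 0 to 227097 CPM with a median of 115185 in Vsir-/- cells, so the ranges overlapped almost wholly. Over cells thinned to 1000 UMIs, the Spearman correlation of S100a8 with S100a9 was 0.85 in 503 WT and 0.85 in 153 Vsir-/- cells, as a description of cells that share a library and a total.

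Retnlg was the next most abundant of the 10 genes and was higher in the Vsir-/- library. It stood at 15591 CPM (15436 to 15747) in WT and 22673 CPM (22339 to 23010) in Vsir-/- neutrophils, a log2 ratio of 0.54 (0.51 to 0.57). The median cell held 9333 CPM in WT and 16068 CPM in Vsir-/-, and the interquartile ranges, from 3880 to 19228 CPM in WT and from 4887 to 32209 CPM in Vsir-/-, overlapped.

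The secondary granule transcripts were higher in Vsir-/- than in WT neutrophils, and Camp, Ltf and Ngp had the largest ratios of the 9 genes tested. Camp, the precursor of the antimicrobial peptide CRAMP, stood at 2805 CPM (2739 to 2871) in WT and 5372 CPM (5210 to 5537) in Vsir-/-, a log2 ratio of 0.94 (0.88 to 0.99). Ltf, the iron-binding lactoferrin, stood at 1347 CPM (1301 to 1393) in WT and 2371 CPM (2264 to 2481) in Vsir-/-, a log2 ratio of 0.82 (0.73 to 0.90). Ngp stood at 5100 CPM (5011 to 5189) in WT and 7956 CPM (7759 to 8157) in Vsir-/-, a log2 ratio of 0.64 (0.60 to 0.69). Lcn2, which binds bacterial siderophores, stood at 4080 CPM (4001 to 4160) in WT and 5401 CPM (5239 to 5567) in Vsir-/-, a log2 ratio of 0.40 (0.35 to 0.46). These intervals treat UMIs as independent although most of the granule UMIs lay in few cells, as described below for the shares of cells, so they are narrower than the uncertainty over which cells were captured.

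Of the receptor and chemokine genes of the set, Cxcr2 and Cxcl2 were lower in Vsir-/- neutrophils. Cxcr2 stood at 961 CPM (923 to 1000.3) in WT and 658 CPM (602 to 717) in Vsir-/- neutrophils, a log2 ratio of -0.55 (-0.69 to -0.41). Cxcl2 stood at 4384 CPM (4302 to 4467) in WT and 3066 CPM (2944 to 3191) in Vsir-/-, a log2 ratio of -0.52 (-0.58 to -0.45). After thinning to 1000 UMIs, 61.8% of 503 WT and 50.3% of 153 Vsir-/- neutrophils had a Cxcr2 UMI, a difference of -11.5 percentage points (95% Newcombe interval -20.4 to -2.57). Without thinning the shares were 93.1% and 87.3%. For Cxcl2 the thinned shares were 79.9% and 64.1%, a difference of -15.9 points (-24.4 to -7.79), and the unthinned shares were 90.3% and 86.7%. The unthinned difference had an interval of -12.2 to -0.81 points for Cxcr2 and of -10.1 to 1.70 points for Cxcl2, which includes 0. Dissociation stress genes, a list of 13 that includes Fos and Jun family members, moved in the same direction as a sum. The sum went from 10398 CPM in WT to 7965 CPM in Vsir-/- neutrophils. Not all of the list did so: Nfkbia (log2 0.83, 0.74 to 0.92), Atf3 (0.33, 0.02 to 0.64) and Hspa1a (0.38, -0.20 to 0.94) were higher in Vsir-/-, and the remaining genes were lower. The part of these genes in the Cxcl2 value was not tested.

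These shifts were set beside those of all genes. With called meaning at least 2-fold apart in CPM, 0 of the 9 genes tested were higher and 0 lower in Vsir-/- neutrophils, beside 9.99% of 7197 genes higher and 10.6% lower (8.41% and 10.8% of the 7073 genes with a UMI in the WT library). Only genes with at least 20 UMIs over both libraries were tested, which left out Cxcl1. The 9 genes held far more, the fewest being Cxcr2 with 2384 UMIs in WT and 511 in Vsir-/- neutrophils. Counting error alone spreads the ratios of sparse genes, so the shares above and the percentiles below do not compare genes of like abundance. The median log2 ratio of the 9 was 0.40 and that of all 7197 genes was -0.06. Camp stood at the 89.1 percentile of all ratios, Ltf at 87.3, Ngp at 83.8, Cxcl2 at 23.9 and Cxcr2 at 22.7.

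**Figure D2:**
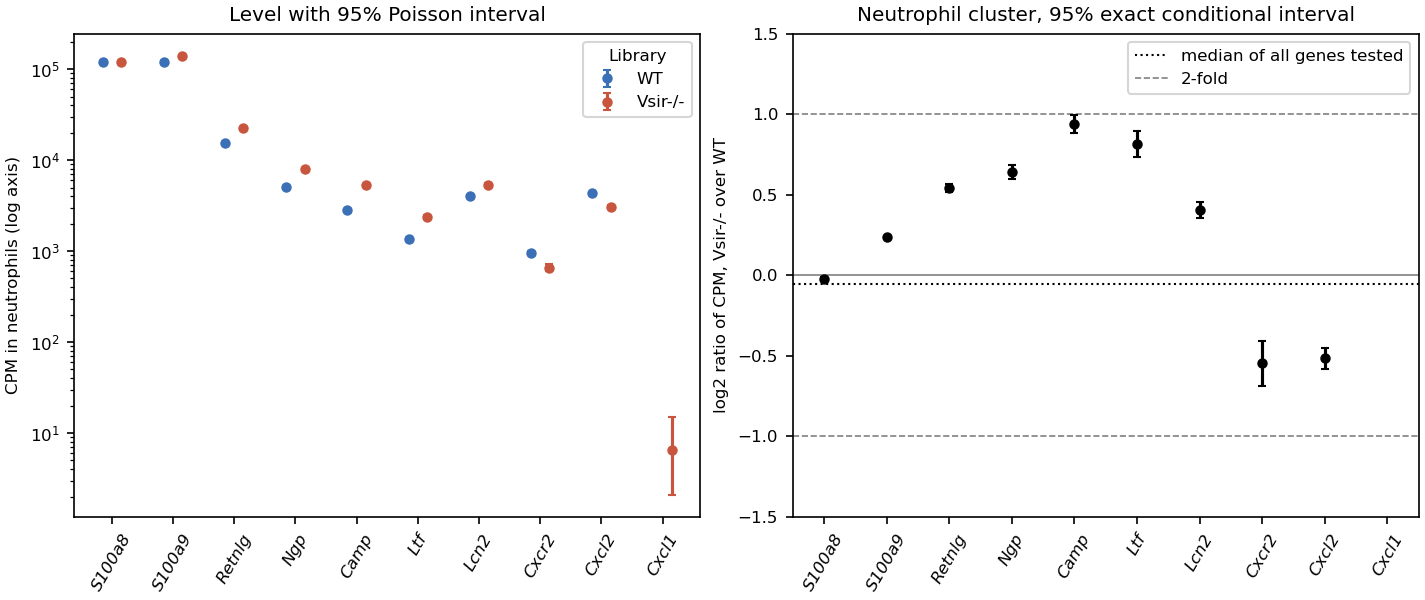
Level of the 10 genes in the neutrophil cluster as CPM on a log axis, with 95% Poisson intervals (left, blue for WT and red for Vsir-/-), and log2 ratio of Vsir-/- over WT with 95% exact conditional intervals (right). The granule genes lie above 0 and Cxcr2 and Cxcl2 below it, all within the dashed 2-fold lines, and Cxcl1, listed at 0 in WT, has no ratio.

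Other genes of granules and recruitment were read from lists of their roles. Of 10 secondary granule genes outside the set, 0 were 2-fold apart and their median log2 ratio was 0.33, beside -0.06 for all 7197 genes tested. Of the 10, 9 lay above 0, among them Hp at 0.02 (-0.07 to 0.11), whose interval includes 0. Mmp8 and Cd177 of this list were also among the 12 neutrophil genes read above. Chil3, a chitinase-like protein of the specific granule, stood at 289 CPM in WT and 494 CPM in Vsir-/- neutrophils, and lysozyme (Lyz2) at 4619 and 6596 CPM, whereas Ifitm6 was lower, at 1522 and 1292 CPM. Of 6 gelatinase granule genes 1 was 2-fold higher, the membrane protease Mmp25, at 29.4 CPM in WT and 118 CPM in Vsir-/- (log2 2.01, 1.55 to 2.47), and Mmp9 was close to equal at 1291 and 1257 CPM.

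Of 8 other chemoattractant receptors 1 was 2-fold lower. This was Cxcr1, with 50 UMIs in WT and listed at 0 in Vsir-/- neutrophils. In the Vsir-/- library 1574 genes were listed at 0 in every cell, and whether a gene filter set the Cxcr1 value was not tested. The remaining receptors differed by less, among them Cxcr4 at 268 and 163 CPM and the formyl peptide receptor Fpr1 at 160 and 210 CPM. A list of other chemoattractant and growth factor genes had 4 with enough UMIs, and they went both ways. Cxcl3, a further ligand of Cxcr2, was lower in Vsir-/- neutrophils, at 77.4 CPM in WT and 14.2 CPM in Vsir-/- (log2 -2.45, -3.48 to -1.58). Il1b stood at 6436 and 4372 CPM. Ccl4 was higher, at 168 and 257 CPM (log2 0.61, 0.36 to 0.86), and Ccl3 was close to equal, at 104 and 109 CPM.

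Of 6 other S100 genes tested, S100a1 was higher (6.45 and 73.4 CPM) and S100a4 lower (154 and 41.2 CPM), while the abundant S100a6 was at 8754 and 8946 CPM. Markers of tubules and of T cells also differed between these neutrophils, as given above. Their part in the S100a1 and S100a4 values was not tested. Among genes for receptors of the encoded proteins, Lrp2, a tubule receptor that takes up Lcn2 and was also 1 of the 10 tubule markers, had 0 UMIs in WT and 35 in Vsir-/- neutrophils. Tlr4, a receptor of calprotectin, stood at 26.6 and 11.6 CPM (log2 -1.20, -2.39 to -0.19). Of 5 regulators of granulocyte development with enough UMIs 0 were 2-fold apart, and they went both ways. Cebpe, the C/EBP factor required for secondary granules, stood at 31.8 CPM in WT and 60.5 CPM in Vsir-/- (log2 0.93, 0.37 to 1.46). Cebpd was lower, at 557 and 347 CPM (-0.68, -0.87 to -0.49), as was Cebpb, at 3001 and 2546 CPM (-0.24, -0.31 to -0.17). The intervals of Spi1 and Cebpa included 0.

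Granule transcripts were not spread evenly over neutrophils. Of the 524 WT neutrophils 367 had no Ngp UMI, 41 had 1, and 34 had at least 100, and these 34 cells held 82.7% of the Ngp UMIs. Of the 158 Vsir-/- neutrophils 88 had no Ngp UMI, 12 had 1, and 16 had at least 100, which held 84.1%. The same cells carried Camp and Ltf. Ngp, Camp and Ltf were all detected in 58 WT neutrophils, 11.1% (exact binomial interval 8.51 to 14.1%), and in 26 Vsir-/- neutrophils, 16.5% (11.04 to 23.2%).

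The difference in this share was 5.39 percentage points, with a Newcombe interval of -0.41 to 12.4 that includes 0. After thinning to 1000 UMIs the shares were 8.75% and 15.7%, and the difference of 6.94 points had an interval of 1.29 to 13.9. For Ngp alone the shares were 30.0% and 44.3%, a difference of 14.3 points (5.80 to 23.0), and after thinning 22.3% and 34.6%, a difference of 12.4 points (4.32 to 20.9). For Camp the unthinned shares were 15.6% and 25.9%, a difference of 10.3 points (3.24 to 18.2), and after thinning the difference was 8.28 points (1.97 to 15.7). For Ltf they were 12.4% and 17.7%, and for Lcn2 76.7% and 79.1%, with intervals of the difference from -0.71 to 12.5 and from -5.39 to 9.17 points. After thinning the Ltf difference was 6.60 points (0.80 to 13.7). Counted by cells, the shares for Ngp, Camp, Ltf and the 3 genes together were higher in Vsir-/- with and without thinning. For Ltf and the 3 genes together the unthinned intervals included 0. The cells of a genotype came from 1 library and are not its replicates. An interval that leaves out 0 is therefore no test between genotypes.

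Neutrophils with all 3 transcripts held more Lcn2 and S100a8 than the rest, and less Cxcl2 and Cxcr2, in each library. They were deeper, with a median of 9988 UMIs against 3389 in WT. Lcn2 stood at 10308 CPM in these cells and 2014 CPM in the rest in WT, and at 12939 and 2505 CPM in Vsir-/-, log2 ratios of 2.36 and 2.37. S100a8 stood at 175966 and 103577 CPM in WT and at 161340 and 103557 CPM in Vsir-/-.

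Cxcl2 and Cxcr2 ran against the granule transcripts. Cxcl2 stood at 1112 CPM in cells with all 3 transcripts and 5470 CPM in the rest in WT, and at 1423 and 3697 CPM in Vsir-/-. Cxcr2 stood at 445 and 1132 CPM in WT, and at 297 and 796 CPM in Vsir-/-. Il1b followed Cxcl2, at 597 and 8372 CPM in WT and 705 and 5781 CPM in Vsir-/-. After thinning, the mean Cxcl2 count per 1000 UMIs was 1 in the 44 WT cells that still held all 3 transcripts and 6.09 in the 387 with none.

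Retnlg differed little between these cells and the rest, with log2 ratios of 0.21 in WT and 0.03 in Vsir-/-. It stood at 17323 and 15016 CPM in WT and at 23050 and 22528 CPM in Vsir-/-. Markers of early neutrophils were on the side of the granule transcripts: Cebpe stood at 105 CPM in cells with all 3 transcripts and 7.51 CPM in the rest in WT, and at 176 and 16.03 CPM in Vsir-/-. Chil3 stood at 1117 and 13.96 CPM in WT. Csf3r and Stfa2l1, which are higher in later neutrophils, were on the other side. Csf3r stood at 272 and 1361 CPM in WT and at 144 and 987 CPM in Vsir-/-. Other neutrophil genes went both ways. In WT, Ly6g stood at 757 and 207 CPM, Mmp9 at 1791 and 1125 CPM, and Il1r2 at 167 and 544 CPM.

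The difference between libraries in Cxcl2 had opposite signs in these cells and in the rest, and the contrast was not tested. Within the neutrophils that lacked at least 1 of the 3 transcripts, Cxcl2 was lower in Vsir-/- (3697 against 5470 CPM), and within those with all 3 it was higher (1423 against 1112 CPM), with 26 and 58 cells.

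**Figure D3:**
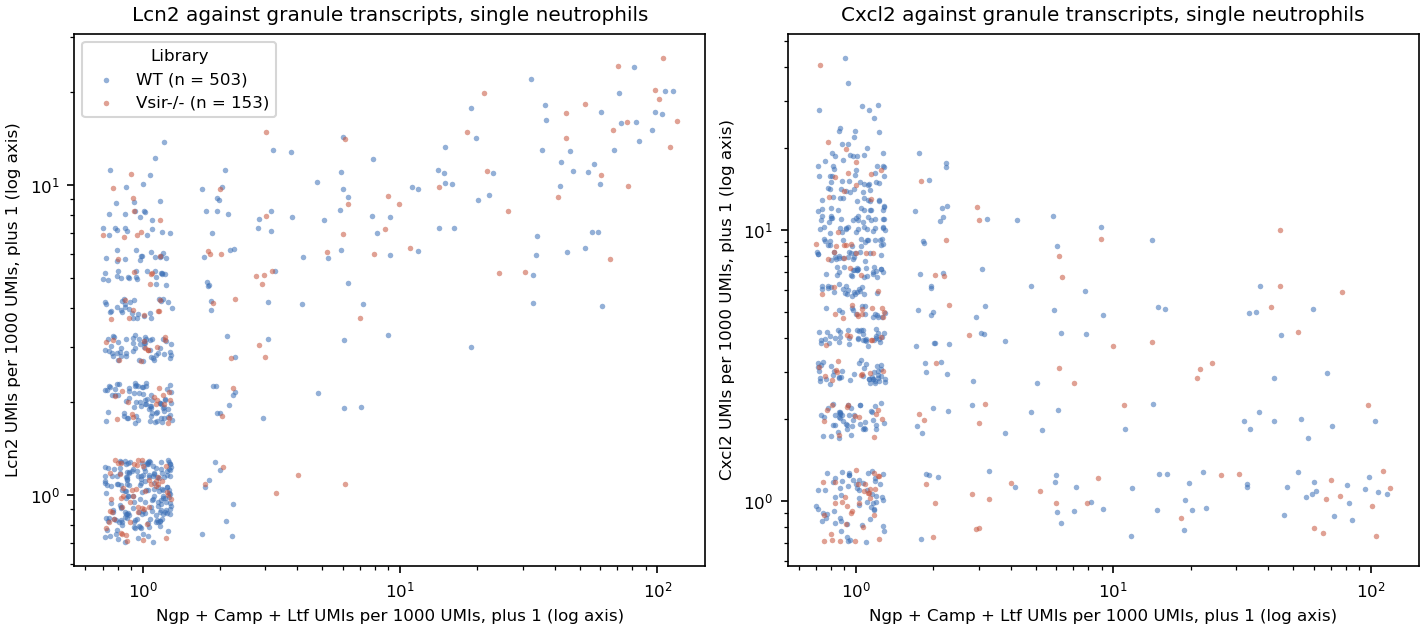
Each point is 1 neutrophil thinned to 1000 UMIs (503 WT in blue, 153 Vsir-/- in red), with Ngp + Camp + Ltf UMIs plus 1 on the horizontal log axis and Lcn2 (left) or Cxcl2 (right) UMIs plus 1 on the vertical log axis, jittered. Lcn2 is higher toward the right in both libraries, and cells with many granule UMIs hold few Cxcl2 UMIs.

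Outside neutrophils 7 of the 10 genes were lower in Vsir-/- cells, Cxcl2 and Lcn2 were higher, and Cxcl1 was listed at 0 in WT. The neutrophil cluster held most UMIs of the granule and calprotectin genes: 94.97% of S100a8, 97.1% of Retnlg, 92.4% of Ngp and 93.3% of Lcn2 UMIs in WT, and 98.9%, 99.3%, 98.96% and 76.3% in Vsir-/-. It held 83.5% (82.9 to 84.1%) of Cxcl2 UMIs in WT and 47.6% (46.2 to 49.01%) in Vsir-/-. Such shares depend also on how many cells of each cluster a library held. Over all cells outside the cluster, S100a8, S100a9, Retnlg, Cxcr2, Ngp, Camp and Ltf were at least 2-fold lower in Vsir-/-, beside 10.1% of 15561 genes. Cxcl2 and Lcn2 were at least 2-fold higher, beside 34.2% of genes, a share that counts genes listed at 0 in every WT cell, among them Cxcl1. Among the 13557 genes with a UMI in the WT library, 24.5% were 2-fold higher and 11.6% lower. The 2 of 9 of the set that were higher are near that share of all genes. The median log2 ratio was 0.41 over the 15561 genes and 0.25 over the 13557.

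S100a8 stood at 527 CPM in WT and 59.97 CPM in Vsir-/- cells outside neutrophils, a log2 ratio of -3.14 (-3.23 to -3.05). In Vsir-/- 1 cell of the cluster named proliferating cell held 399 of the 1069 S100a8 UMIs. That cell had 630 endothelial and 38 neutrophil marker UMIs. Part of the S100a8 outside neutrophils was a low level spread over clusters named as lymphoid. Over 9 such clusters of WT it ran from 67.0 to 159 CPM, and over 8 of Vsir-/- from 23.7 to 42.2 CPM. These ranges of point values did not overlap. The highest Vsir-/- value rested on 7 UMIs, and its interval of 17.0 to 86.9 CPM reached into the WT range. S100a9 gave 94.7 to 180 CPM in WT and 29.8 to 53.3 CPM in Vsir-/-. The highest WT value of both genes was that of NK cells, and it was not evenly spread. There 1 of 594 cells held 548 of the 1275 S100a8 and S100a9 UMIs, and it had 25 neutrophil marker UMIs. In the WT cluster of CD4+ T cells not of effector memory (EM) type, named non-EM-like, no cell held more than 5 S100a8 UMIs. The Vsir-/- cluster of that name gave the lowest value of both genes, and 233 of its 349 cells had no T cell marker UMI. In its 116 cells with one, S100a8 stood at 27.1 CPM and S100a9 at 39.4 CPM. The part of free RNA in these levels was not tested.

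**Figure D4:**
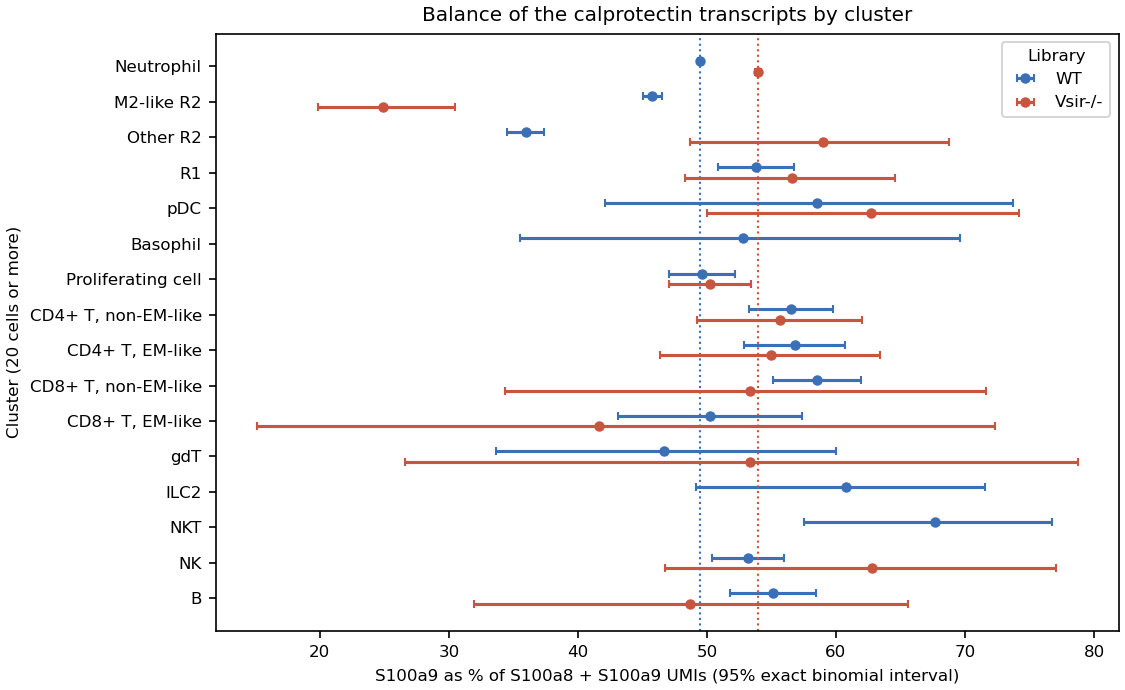
S100a9 as a percentage of S100a8 and S100a9 UMIs (horizontal axis) in each cluster with at least 20 cells (vertical axis), with 95% exact binomial intervals, blue for WT and red for Vsir-/-, and dotted lines at the neutrophil values. In WT, M2-like R2 and other R2 macrophages lie to the left of the neutrophil line, the latter through 1 cell, and R1 macrophages and several T cell clusters lie to its right.

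Most of the WT excess lay in macrophage clusters, and there in few cells. M2-like R2 macrophages, a kidney-infiltrating class, held S100a8 at 2204 CPM (2161 to 2249) in WT and 122 CPM (106 to 140) in Vsir-/-. Other R2 macrophages held 2189 CPM (2109 to 2271) in WT and 53.1 CPM (38.1 to 72.0) in Vsir-/-. Resident R1 macrophages held 760 CPM (696 to 827) in WT and 41.2 CPM (31.9 to 52.4) in Vsir-/-.

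In the WT M2-like R2 cluster 55 of 456 cells held at least 20 S100a8 and S100a9 UMIs, and these cells held 92.8% of the cluster's UMIs of both genes. Their median depth was 3806 UMIs, against 10059 in the rest of the cluster and 3565 in WT neutrophils. Their median number of neutrophil marker UMIs was 8 against 3 in the rest of the cluster. A macrophage or monocyte marker UMI was present in 42 of the 55. The monocyte markers include Ly6c2, which stood at 652 CPM in WT neutrophils, so that count does not separate these cells from neutrophils. In the Vsir-/- M2-like R2 cluster 2 of 168 cells passed this mark. In WT other R2 macrophages 3 of 188 cells did so, and 1 of them held 2142 of the cluster's 2804 S100a8 UMIs. That cell had 39392 UMIs in all, of which 80 were neutrophil markers, 72 B cell markers and 22 macrophage markers.

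Granule transcripts outside neutrophils came mostly from 2 cells in WT and were spread thinly in Vsir-/-. In the WT M2-like R2 cluster 1 cell held 593 of the 613 Ngp UMIs, with 443 Camp and 163 Ltf UMIs. That cell also had 100 neutrophil marker UMIs, 139 monocyte marker UMIs and no macrophage marker UMI. In WT other R2 cells the cell with 2142 S100a8 UMIs held 295 of the 303 Ngp UMIs. In Vsir-/- the 65 Ngp UMIs outside neutrophils lay in 58 cells, with at most 4 in a cell, the 60 Camp UMIs in 55 cells and the 62 Ltf UMIs in 53. Without cells holding 2 or more neutrophil marker UMIs, the log2 ratio of Ngp outside neutrophils was -0.23 in place of -3.23, and Camp and Ltf changed sign to 0.58 and 0.41. The lower Ngp, Camp and Ltf of Vsir-/- cells outside neutrophils thus rested on cells that this filter took out. S100a8 remained lower after the filter, at -1.68. The filter also took out macrophages of both libraries. M2-like R2 cells with fewer than 20 S100a8 and S100a9 UMIs had a median of 3 neutrophil marker UMIs in WT and 2 in Vsir-/-.

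The balance of S100a9 to S100a8 differed between WT clusters. It was 45.8% (45.04 to 46.5%) in M2-like R2 cells, below the 49.4% of neutrophils, and 53.8% (50.9 to 56.7%) in R1 macrophages and 56.6% (53.3 to 59.8%) in CD4+ non-EM-like T cells, above it. In other R2 cells it was 35.95%, and 52.8% (50.2 to 55.5%) without the cell with 2142 S100a8 UMIs, so its place below the neutrophils rested on that cell. In R1 it was 50.9% (47.4 to 54.4%) without its cell with most UMIs, an interval that includes the neutrophil value. In M2-like R2 the 55 cells with at least 20 UMIs had 45.4% and the rest 51.1%. In Vsir-/- M2-like R2 cells it was 24.9% (19.9 to 30.5%), and the 2 cells with most UMIs there held 108 S100a8 UMIs and no S100a9 UMI.

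Cxcr2 outside neutrophils was found in basophils, which held 40 UMIs in 25 WT cells, a level of 275 CPM (197 to 374). The other clusters with more than 10 UMIs were WT M2-like R2 (91 UMIs, 20.7 CPM) and WT other R2 (31 UMIs, 24.2 CPM). The Vsir-/- library had 2 basophils and 16 Cxcr2 UMIs outside neutrophils.

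Cxcl2 was a macrophage as well as a neutrophil transcript. M2-like R2 macrophages held 321 CPM (304 to 338) in WT and 794 CPM (752 to 838) in Vsir-/-. Other R2 macrophages held 210 CPM (186 to 237) in WT and 633 CPM (578 to 691) in Vsir-/-. Resident R1 macrophages held 197 CPM (166 to 233) in WT and 277 CPM (252 to 304) in Vsir-/-, and innate lymphoid cells (ILC2) held 228 CPM (184 to 280) in WT and 392 CPM (297 to 508) in Vsir-/-.

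In all 4 clusters the Vsir-/- level was thus higher, opposite to the neutrophils. It was carried by a minority of cells: 24 of 168 Vsir-/- M2-like R2 cells had at least 10 Cxcl2 UMIs and held 92.9% of the cluster's UMIs, and 1 of them held 215 of 1330. In WT 46 of 456 cells did so and held 73.4%. The 4 Vsir-/- cells with most Cxcl2 UMIs outside neutrophils were all M2-like R2 cells with 11 to 176 macrophage marker UMIs and at most 3 S100a8 UMIs. Restricted to cells outside neutrophils with a UMI of Ptprc, the gene for CD45, the log2 ratio of Cxcl2 was 1.60 in place of 1.05. Both values pool clusters that the libraries held in unlike shares. R1 macrophages, for example, were 116 of 5470 WT and 237 of 1844 Vsir-/- cells. Within the 4 clusters the log2 ratio was 1.31 in M2-like R2, 1.59 in other R2, 0.49 in R1 and 0.78 in ILC2.

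Lcn2 outside neutrophils was held by different cells in each library. In WT 726 UMIs lay outside, of which 463 were in M2-like R2 cells and 174 of those in the cell with 593 Ngp UMIs. In Vsir-/- 1305 UMIs lay outside, of which 809 were in the cluster named CD4+ T, non-EM-like. Of these, 703 were in the 233 cells of that cluster without any T cell marker UMI, at 208 CPM (193 to 224), and 106 in the 116 cells with one, at 87.0 CPM (71.2 to 105). Most of those 106 lay in a cell with 63 and a cell with 32 Lcn2 UMIs. They had 1 and 2 T cell marker UMIs, 1341 and 799 tubule marker UMIs and no Ptprc UMI. The value of 87.0 CPM therefore does not stand for the cells with a T cell marker in general. The WT cluster, in which all 895 cells had a T cell marker UMI, held 25 Lcn2 UMIs at 5.61 CPM.

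The Vsir-/- cells without T cell marker held tubule markers at 11107 CPM. The 4 cells with most Lcn2 held 165, 141, 140 and 114 Lcn2 UMIs, 174, 1484, 7 and 82 tubule marker UMIs, and no T cell marker UMI. Over all Vsir-/- cells outside neutrophils, 830 of the 1305 Lcn2 UMIs (63.6%) were in the 482 cells without a Ptprc UMI. In cells with a Ptprc UMI the level was 42.1 CPM (38.4 to 46.0) in Vsir-/- and 24.2 CPM (22.5 to 26.1) in WT. The log2 ratio was 0.79 in place of 1.61 over all cells. This restriction did not set tubule transcripts aside, as tubule markers in cells with a Ptprc UMI stood at 1950 CPM in Vsir-/- and 4.32 CPM in WT. For example, 1 Vsir-/- cell of the B cluster had 9 Ptprc, 447 tubule marker and 70 Lcn2 UMIs. The cell classes that each library sampled cannot be told apart from genotype here.

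Cxcl1 was seen in the Vsir-/- library alone and hardly in neutrophils. It had 509 UMIs in 86 Vsir-/- cells, of which 5 UMIs were in neutrophils, and it was listed at 0 in all 5470 WT cells. Because the empty genes of the WT library stand together in the gene list, a gene filter on that library could have set a gene found in few cells to 0, so no fold is given. The cluster named proliferating cell held 314 of the 509 UMIs, and 291 of these were in its 123 cells without a T cell marker UMI, at 96.9 CPM (86.1 to 109).

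The 3 cells with most Cxcl1 held 106, 51 and 47 UMIs. The first had 127 UMIs of the monocyte marker list, which includes Fn1 and Vcan, with 53 tubule marker UMIs and 1 macrophage marker UMI. The second had 333 endothelial marker UMIs and the third 183 tubule marker UMIs. These 3 cells had 0, 0 and 2 Ptprc UMIs, and the class of the first was not tested. M2-like R2 macrophages held 90 Cxcl1 UMIs at 53.7 CPM (43.2 to 66.0), and R1 macrophages 30 at 18.7 CPM (12.6 to 26.7). The 90 UMIs lay in 13 of 168 cells, and 5 of these cells held 72. The 30 UMIs lay in 11 of 237 cells. The 14 Cxcl1 UMIs of the ILC2 cluster all lay in 1 of its 19 cells, which also held 399 tubule marker UMIs.

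**Figure D5:**
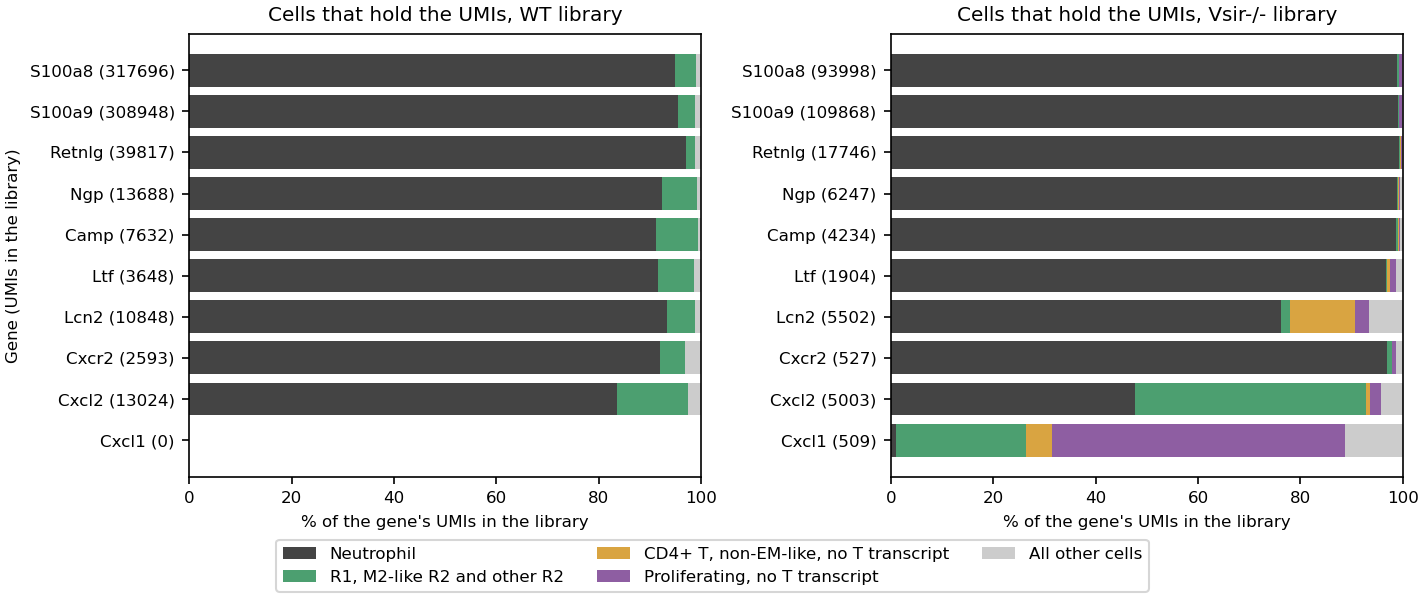
Percentage of each gene's UMIs in the WT (left) and Vsir-/- (right) library held by neutrophils, by R1 and R2 macrophages, by cells without T cell marker UMI in the CD4+ non-EM-like T and proliferating clusters, and by all other cells, with the UMIs of the library in brackets. The Vsir-/- bars of Lcn2, Cxcl2 and Cxcl1 hold more of the UMIs outside neutrophils than those of the other 7 genes.

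The genes most alike in pattern differed between the granule and the chemokine members. Over 29 groups of cells of at least 20, each a cluster in a library, and 12711 genes, the genes outside the set with the highest Pearson correlation of log CPM with S100a8 were Stfa2l1 (0.96), Il1f9 (0.95) and Wfdc21 (0.94). With Ngp they were Il1f9 (0.92), Wfdc21 (0.92) and Itgb2l (0.90). With Cxcl2 they were Pgd (0.92), Pygl (0.88) and Clec4e (0.87). Within the set S100a8 went with S100a9 (0.99), Retnlg (0.93) and Ngp (0.91), less with Lcn2 (0.70) and Cxcl2 (0.65), and not with Cxcl1 (-0.10). The groups share 2 libraries and the neutrophil clusters weigh heavily, so these values describe the pattern only.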

How the data were processed

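The data were single-cell RNA libraries (10x Chromium 3', version 3.1 chemistry) of 1 WT and 1 Vsir-/- kidney sample. The deposited values were whole-number UMI counts per gene and cell, which the authors made with Cell Ranger 3.1.0; their notes also name R 4.0.3, Seurat 3.2.3 and build mm9. The authors' filters required a gene to be seen in at least 5 cells and a cell to have at least 200 UMIs and no more than 10% mitochondrial reads, and the authors deposited a mitochondrial percent and a cluster name per cell, which were used as given. Doublet removal is not given in the sources used here, and no doublet caller was run.

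From these counts, UMIs were summed per gene, cluster and library and divided by all UMIs of the same cells (CPM). Intervals (95%) were exact Poisson for levels, exact conditional for ratios, Clopper-Pearson for shares and Newcombe for differences of shares, computed with Python 3.11.15, numpy 2.4.6, scipy 1.17.1 and pandas 2.3.3. UMIs of 1 cell are not independent draws, and cells of 1 library are not replicates of a genotype. All intervals thus cover only the counting of UMIs or the draw of cells within a library. Background and list medians used genes with at least 20 UMIs and a pseudocount of 0.5 UMIs. Shares were also given with cells thinned to 1000 UMIs, which left out 21 WT and 5 Vsir-/- neutrophils. Ratio intervals were tested on simulated independent Poisson counts, the model that they assume. That test says nothing about UMIs that lie together in few cells, as those of the granule genes did. Named were the 10 genes, listed genes at least 2-fold apart in neutrophils and the 3 genes most alike in pattern to S100a8, Ngp and Cxcl2; further genes named as list examples or beside the granule classes were chosen after their values were seen. A list of adhesion genes is not reported here. The 10 genes, the lists and the tests were chosen with earlier results of these data known.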

Additional observations from a re-analysis of the deposited data

How the results depend on the processing

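With 1 library per genotype the alternatives change values, not tests. In neutrophils S100a8, at -0.02, took the opposite sign with cells of at most 5% mitochondrial reads (0.038), with CPM against UMIs without the 10 genes and without tubule, erythrocyte and mitochondrial genes (0.077), and centred on the median of all genes (0.031). Ngp (0.64) moved to 0.86 when thinned to 1000 UMIs, 0.87 as a mean over cells, 0.74 with the other denominator and 0.70 when centred. Camp (0.94) moved to 0.87 with the mitochondrial limit, 1.02 when thinned, 1.03 as a mean over cells and 1.04 with the other denominator. Ltf (0.82) moved to 1.12, 1.03 and 0.92 when thinned, as a mean over cells and with the other denominator. The split of neutrophils by granule transcripts, the exclusion by 5 markers, the restrictions to cells with Ptprc and to genes with a UMI in the WT library, and the S100a9 shares without 1 cell were chosen after seeing the data. The split uses Ngp, Camp and Ltf themselves, so their values within it are no test of a difference. In neutrophils without all 3 of Ngp, Camp and Ltf the log2 ratios were 0.93 for Ngp, 1.24 for Camp and, opposite in sign, -0.077 for Ltf (-3.38 to 2.32). In neutrophils with all 3 they were 0.47, 0.78 and 0.66, and Cxcl2 changed sign to 0.36.

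Outside neutrophils, without cells holding 2 or more neutrophil marker UMIs, Camp and Ltf changed sign to 0.58 and 0.41, and without cells holding 2 or more UMIs of 5 such markers, to 0.82 and 0.90. In the first of these alternatives S100a9 made up 55.9% of S100a8 and S100a9 UMIs in WT in place of 46.5%, and 54.7% in Vsir-/- in place of 49.4%. The count of the 10 genes higher by the chosen fold went from 0 to 3 of the 9 tested at 1.5-fold, beside 1284 of all 7197 genes tested. With at least 5 UMIs the count of the 10 genes reads 1, but this is Cxcl1, with 5 Vsir-/- UMIs against a WT listing of 0, so no fold is given. Over the 7197 genes the counts higher and lower were 719 and 766, and they became 1284 and 1519 at 1.5-fold, and 321 and 330 at 4-fold. They were 2128 and 1429 with at least 5 UMIs and 129 and 214 with at least 100 UMIs. These 2 limits test other numbers of genes, so those counts are not shares of the 7197. Of the alternative values 9 changed sign, 128 moved beyond their counting interval or, for a count of genes, by over 1.5 times, and 92 did not.

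No paired analysis was possible because each genotype has 1 library; no replicate was left out. For Cxcl1 no limit from depth is given, since its WT 0 was not shown to be a count. Elsewhere depth limits the rare genes, such as Cxcr2 with 16 UMIs in Vsir-/- cells outside neutrophils.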
